A study of Mus musculus with 4 samples.

Results

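Csmd3, Sox5, Cdh18, Celf2, Dnm3, Hhat, Rad51b and Gse1 are 8 of the 21631 protein-coding genes on the chromosomes that carried listed sites, with spans of 258 to 1212 kb. They were chosen by the number of glucocorticoid receptor (GR) sites in and around them after 1 h of hormone, so that number is a description and was not tested. A site belonged to a gene when its centre lay in the RefSeq gene span (assembly GRCm38, mm10) or within 25 kb of it. By this rule the genes held 57 of the 5638 sites listed at 1 h and 33 of the 2883 listed at 12 h.

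GR binding was mapped by ChIP-seq in 33AP1C9 cells, a line descended from C127 mouse mammary epithelial cells that carries integrated copies of an MMTV-pp7 reporter together with a GFP-tagged PP7 coat protein. All groups share these insertions. The groups were untreated cells (0 h), cells given 600 nM corticosterone for 1 h, and cells given the same dose for 12 h, all held beforehand in medium with charcoal-stripped serum. Each group had 1 library, labelled as its first replicate, so no value below has a replicate check. Tags per library numbered 79203826, 90556119 and 97749688, in that order. The labels describe an antibody mixture in which 1 catalogue number differs from sample to sample; its part in the results was not tested. Per the file headers, the control for either treated list was the untreated ChIP library. The lists thus share that control, and every listed site stood at least 6-fold above it by construction.

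GR is a nuclear receptor that is held in the cytoplasm until a glucocorticoid such as corticosterone binds it, and that then enters the nucleus and binds DNA, mostly at enhancers far from transcription starts. Its preferred element is a pair of inverted hexamers separated by a short spacer. Long genes are made mainly of intron, and introns can hold enhancers of the host gene or of neighbours, so a site within a span does not name the gene it acts on. The table used here gave spans and some transcription starts but no exons, and exonic and intronic positions were therefore not assigned.

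The genes differ in what they encode. Csmd3 encodes a very large membrane protein built of CUB and sushi domains, Sox5 a SoxD transcription factor, and Cdh18 a type II cadherin of cell-cell junctions. Celf2 encodes an RNA-binding protein that regulates alternative splicing, and Dnm3 a dynamin, a GTPase that cuts membrane necks in endocytosis. Hhat encodes the acyltransferase that attaches palmitate to hedgehog ligands. Rad51b encodes a protein used in homologous recombination, and Gse1 a protein found with the KDM1A-HDAC corepressor complex.

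The listed promoters closest to any of these sites are shown first. RefSeq sequences (GRCm38.p6), running from 250 bases before to 50 after a start, were found for 7 of the 8 genes, with 14 starts between them; Csmd3 had no entry. Of the 46 sites listed at 1 h in these 7 genes, 2 lay within 10 kb of a listed start, none lay within 1 kb, and the median distance was 194 kb. For Sox5, Cdh18 and Gse1 the listed starts are internal, lying 835, 488 and 260 kb from the 5-prime end of the span, so these distances do not cover the outermost starts of those 3 genes. Measured instead from the 5-prime end of the span, 1 of the 46 sites lay within 10 kb, in Hhat, and the median distance was 184 kb. The 2 were a Celf2 site 7.96 kb from an internal start and a Hhat site 8.05 kb from its start. The Gse1 promoter is shown as well, because it alone among the 14 windows held the spaced pair of short repeats ACANNNTGT, although its gene had the weakest sites. A single capital marks the start base in each line, and the longer run of capitals in the Gse1 line marks the match. The windows are chr1:192771170-192771469 on the minus strand for Hhat, chr2:7081253-7081552 on the minus strand for Celf2, and chr8:120535607-120535906 on the plus strand for Gse1.
Hhat: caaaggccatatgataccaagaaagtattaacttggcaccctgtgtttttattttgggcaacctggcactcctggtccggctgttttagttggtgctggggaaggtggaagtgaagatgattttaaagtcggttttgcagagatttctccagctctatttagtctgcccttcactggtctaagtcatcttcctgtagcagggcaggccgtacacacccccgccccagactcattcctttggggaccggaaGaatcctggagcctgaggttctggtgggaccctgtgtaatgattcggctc
Celf2: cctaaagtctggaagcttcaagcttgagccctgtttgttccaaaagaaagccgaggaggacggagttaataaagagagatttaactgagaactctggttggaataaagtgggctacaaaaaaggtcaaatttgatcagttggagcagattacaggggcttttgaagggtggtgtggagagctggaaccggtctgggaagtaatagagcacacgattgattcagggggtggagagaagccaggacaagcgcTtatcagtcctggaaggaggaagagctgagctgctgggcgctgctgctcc
Gse1: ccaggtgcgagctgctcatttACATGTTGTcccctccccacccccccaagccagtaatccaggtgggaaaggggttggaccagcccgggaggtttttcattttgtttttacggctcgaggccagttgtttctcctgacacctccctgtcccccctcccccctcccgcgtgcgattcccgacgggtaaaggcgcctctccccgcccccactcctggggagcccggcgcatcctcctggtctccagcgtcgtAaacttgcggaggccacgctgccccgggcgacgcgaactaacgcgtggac

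Both strands were searched. The short form ACANNNTGT, which reads the same on either strand, occurred in 1 of the 14 windows and in 6.85% of all 32851 promoter windows of this length. The Gse1 match, ACATGTTGT, begins at position -229 relative to the start. The full palindromic glucocorticoid response element of 15 bases, which contains the short form, occurred in 0 of the 14 windows and in 3 windows of the whole table. The single hexamer AGAACA occurred in 2 of the 14 windows and in 19.0% of all windows. A match describes letters only. The sequences of the sites themselves were not used here.

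Many sites within 1 gene were uncommon in this list. Each of the 8 genes held 6 or more sites at 1 h, the quantity they were chosen by; 0.116% of all coding genes (25 genes) and 2.03% of the 691 coding genes at least as long as Hhat (14 genes) did so. At 12 h only Csmd3 among them still held 6 or more, against 0.0277% of coding genes. Length alone was not accompanied by many sites: of the 691 long genes, 49.3% held any 1 h site, 350 held none, 240 held 1 or 2, and 87 held 3 to 5. The 93 genes of 850 kb or more averaged 0.109 sites per 100 kb, and 50 of them held none. Just outside the choice were 6 further long genes with at least 6 sites, Adam12, Cdkal1, Frmd4a, Nrg1, Slc24a3 and Sorbs2; Frmd4a, for example, held 6 at 1 h and 0 at 12 h, and Nrg1 held 6 and 3. The other 11 genes were shorter than Hhat, among them Tns1, with 11 sites in 214 kb and so level with Csmd3.

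Density therefore ordered the genes differently from the count. Over the spans with their margins, the 8 genes together carried 0.949 sites per 100 kb at 1 h and 0.549 at 12 h. All coding spans with the same margins, merged, carried 0.249 and 0.123, and coding genes at least as long as Hhat 0.190 and 0.0985. The 8 genes were chosen by their 1 h count, so the 1 h difference is a description. Of their 33 sites at 12 h, 29 were also listed at 1 h, so the 12 h difference is a description as well. Hhat, the shortest at 258 kb, had the highest density with margins at 1 h, 1.95 sites per 100 kb. Gse1 followed with 1.74 over a span of 353 kb and Dnm3 with 1.10 over 496 kb. Rad51b had 0.998 over 551 kb, and Csmd3, with the most sites, had 0.872 because its span is 1212 kb. Sox5 (954 kb) had 0.797, Cdh18 (929 kb) 0.715 and Celf2 (857 kb) 0.662. At 12 h Hhat had 1.30, whereas Cdh18 had 0.204 and Gse1 0.248. The place of Hhat rested on the margins: over the spans alone it had 1.16 at 1 h, below 1.98 in Gse1 and 1.21 in Dnm3, and 0.774 at 12 h, below 0.807 in Dnm3. Cdh18 had 0.108 over its span alone at 12 h.

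**Figure D1:**
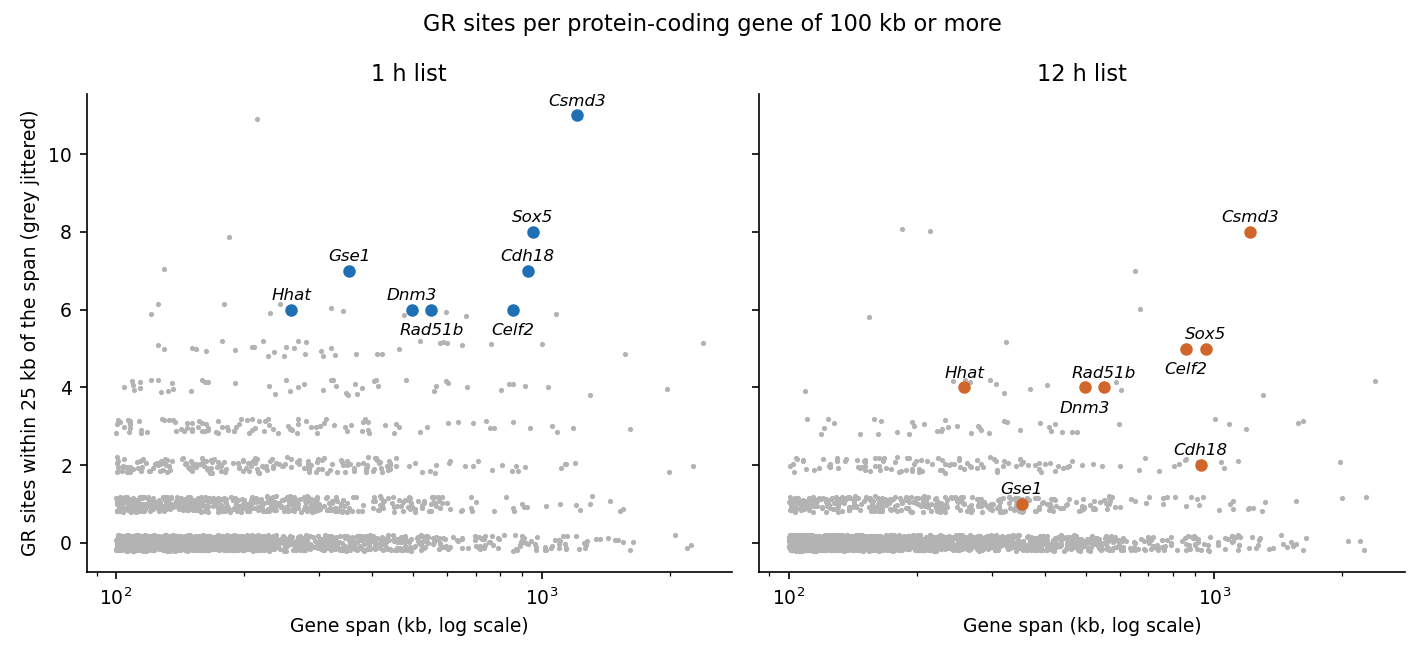
Number of sites within 25 kb of the span (vertical axis) against gene span in kb (log horizontal axis) for coding genes of 100 kb or more, at 1 h on the left and 12 h on the right, with the 8 chosen genes in colour and all others in grey, slightly jittered. The 8 genes sit at 6 to 11 sites at 1 h and at 1 to 8 at 12 h, while at 1 h most of the long genes sit at 0 to 2.

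The margin mattered mainly for Hhat. Of the 57 sites at 1 h, 53 lay inside a span; 3 of the others flanked Hhat, at 1.64, 10.1 and 18.0 kb outside it, and 1 flanked Cdh18 at 3.53 kb. At 12 h, leaving out the margin took Hhat from 4 sites to 2 and Cdh18 from 2 to 1. The nearest sites left out lay 27.3 kb from Hhat (22.5 tags) and 29.6 kb from Gse1 (12 tags). A margin of 100 kb took Gse1 from 7 sites to 11 at 1 h and from 1 to 2 at 12 h, and Hhat from 6 to 9 at 1 h. The sites it added to Gse1 included a 1 h site of 26 tags, 55.1 kb outside the span. Here and below, tags are the deposited counts normalised to a library of 10000000 tags.

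The sites of a gene were unevenly spread along it. In Csmd3, 10 of the 11 sites at 1 h fell in a stretch of 401 kb, and in Hhat all but 1 fell within 56.0 kb. The corresponding stretch was 112 kb in Gse1, 235 kb in Dnm3, 239 kb in Celf2 and 245 kb in Rad51b. In Cdh18 and Sox5 it was 717 and 838 kb, so their sites reached over most of the span without filling it. The largest gaps between neighbouring 1 h sites were 484 kb in Csmd3, 440 kb in Cdh18 and 420 kb in Sox5. Gene by gene, the smallest gap between neighbouring 1 h sites was 1.79 kb in Csmd3, 2.82 kb in Hhat and 5.65 kb in Sox5.

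**Figure D2:**
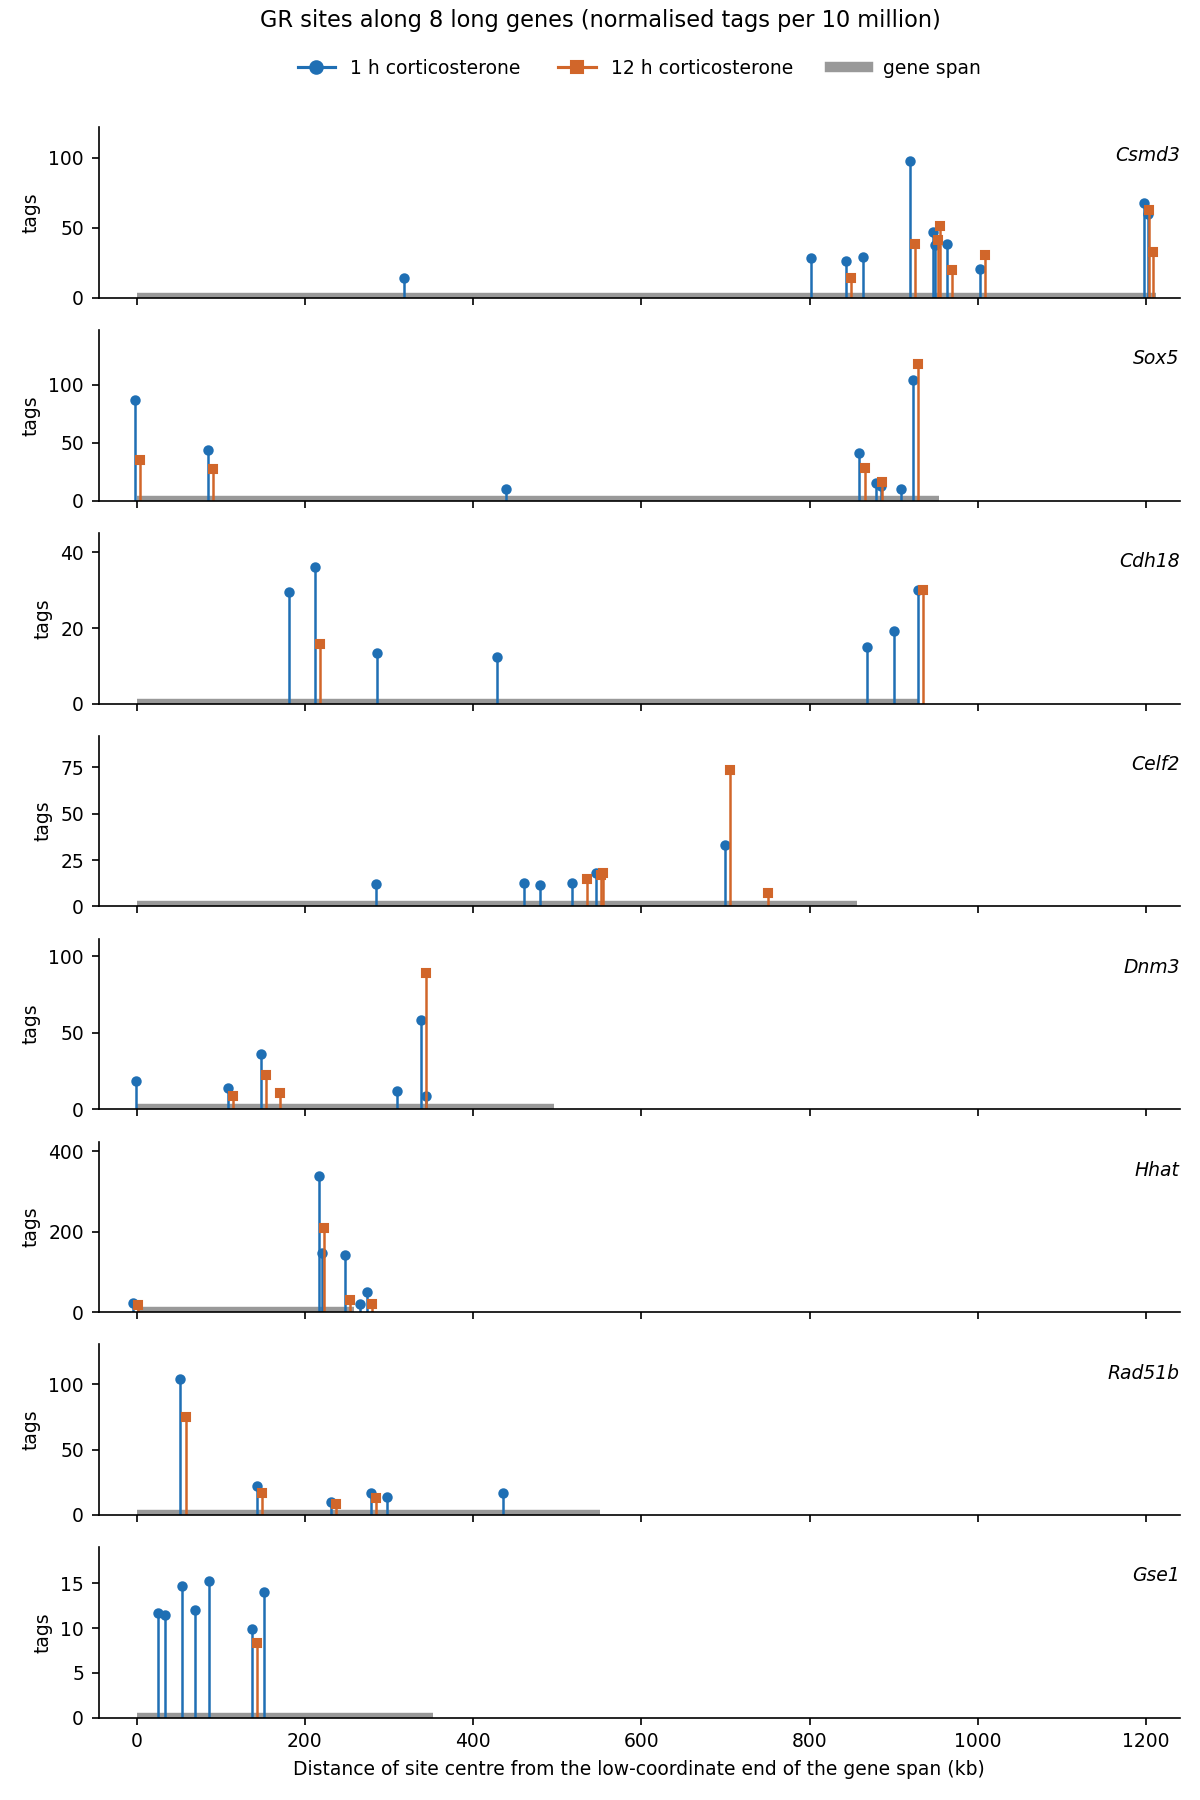
Each listed site of the 8 genes by the distance in kb of its centre from the low-coordinate end of the gene span (horizontal axis, with the span as a grey bar) and its normalised tags (vertical axis, scaled per gene), with 1 h in blue circles and 12 h in orange squares, slightly shifted apart. The tallest sites are in Hhat, 10 of the 11 Csmd3 sites lie toward the high end of the span, and the 7 Gse1 sites sit between 9.94 and 15.2 tags at 1 h.

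Across the 61 sites listed at either time, 29 were in both lists, 28 were listed at 1 h only and 4 at 12 h only. Of the 57 sites at 1 h, 50.9% were listed again at 12 h (95% Wilson interval 38.3 to 63.4), beside 43.2% of the whole 1 h list. Of the 33 sites at 12 h, 87.9% had been listed at 1 h (72.7 to 95.2), beside 84.5% of the whole 12 h list. Both intervals include the share of the whole list, so neither share stood apart from it at this number of sites. By gene, the relisted share ran from 72.7% in Csmd3 (interval 43.4 to 90.3) to 14.3% in Gse1 (interval 2.57 to 51.3). In between were Hhat and Rad51b at 66.7%, Sox5 at 62.5%, Dnm3 at 50%, Celf2 at 33.3% and Cdh18 at 28.6%. These shares rest on 6 to 11 sites per gene. The interval of every gene except Csmd3 included the 43.2% of the whole list, and that of Csmd3 began just above it.

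At the 29 shared sites the tags were mostly lower at 12 h. The median log2 ratio of 12 h to 1 h was -0.42, beside -0.49 over all 2436 shared sites, and scaling by the tags of shared sites instead of the library raised every ratio by 0.57 and turned the median to 0.16. A ratio less than 0.57 below 0 therefore changes direction on that other scale. On the deposited scale 23 of the 29 were lower and 6 higher, beside 77.2% and 22.8% of all shared sites. A 2-fold or larger fall was seen at 5 and a 2-fold or larger rise at 1, beside 24.5% and 1.44%. The exact Clopper-Pearson 95% interval of the ratio lay below 0 at 17 sites, above 0 at 5 and spanned 0 at 7; over all shared sites it lay below 0 at 61.8% and above 0 at 11.5%. All intervals given here cover counting error alone. Reads carried no molecular identifiers and may repeat a molecule, and the ratios set 1 library against another rather than testing the conditions. The counts of the 8 genes were near those of the whole list.

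**Figure D3:**
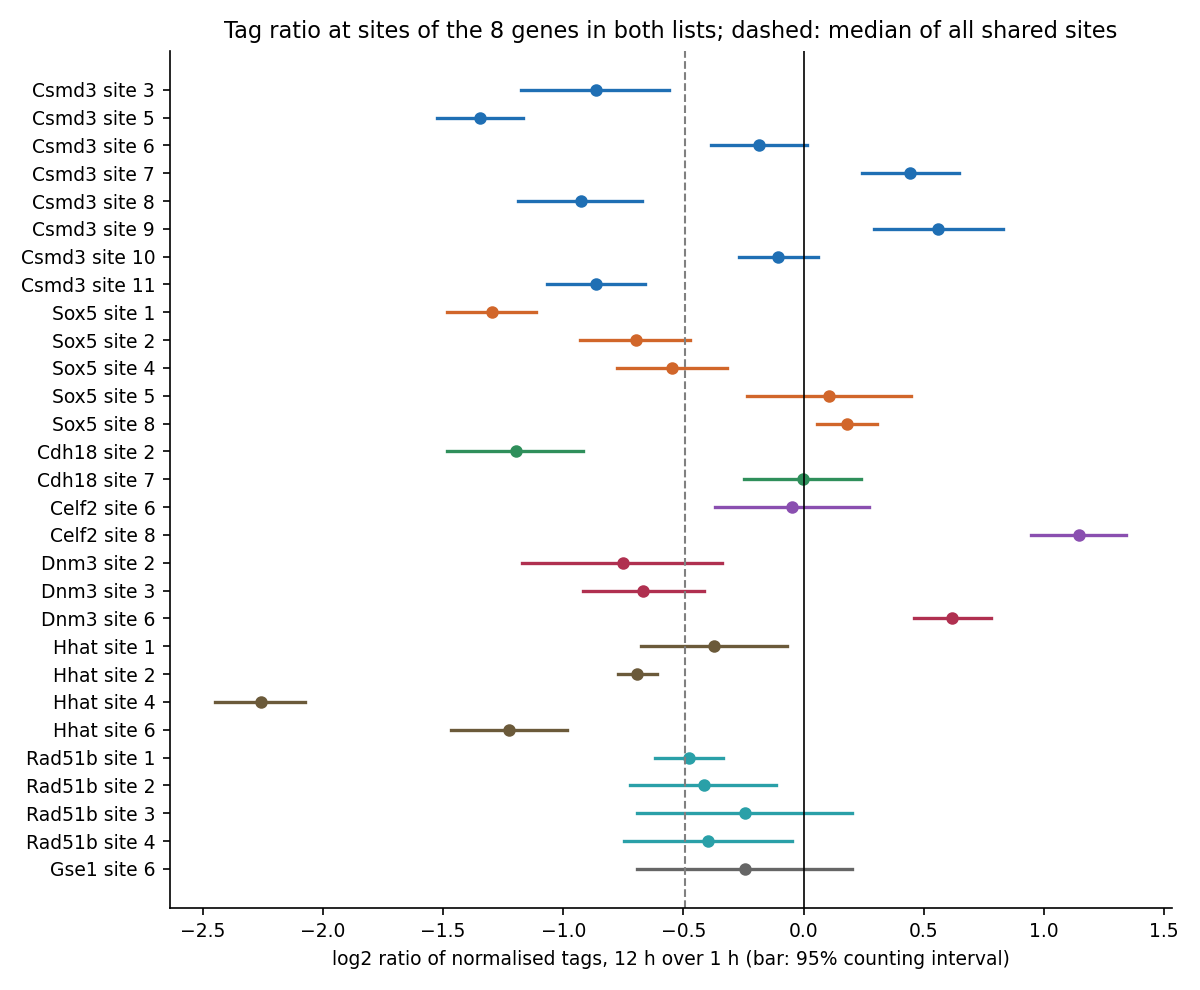
The log2 ratio of normalised tags, 12 h over 1 h, at the 29 shared sites by gene, numbered along each span from its low end, with exact 95% counting intervals as bars and a dashed line at the median of all shared sites (-0.49). The Hhat site at -2.26 and the Celf2 site at 1.14 are the extremes, and 7 bars cross 0.

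Sites that left the list had been weak and close to the caller's minimums. At 1 h the 28 sites not relisted had a median of 13.7 tags (8.83 to 146.9), and the 29 relisted had 37.8. Their median fold over the untreated library was 9.57 against 26.2, and their median fold over the surrounding 10 kb was 8.83 against 14.8. Untreated tags, given on the untreated library's own scale, were similar, with medians of 12 and 11. Of the 28, 25 were within 2-fold of at least 1 of the required folds of 6, whereas 20 of the 29 relisted sites cleared both by 2-fold. The whole 1 h list showed the same contrast, with 14.7 tags at sites not relisted and 29.4 at sites relisted. A site that is missing from the 12 h list therefore had an unknown level there, below the caller's minimum of tags or of fold, and cannot be read as unbound.

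When every minimum was doubled, 22 of the 57 sites at 1 h qualified, beside 36.7% of the whole list, and 20 of these 22 were listed at 12 h, beside 75% of the qualifying sites of the whole list. At 12 h 12 of the 33 qualified, beside 33.6%, and all 12 were listed at 1 h, beside 98.8%. The 3 sites that cleared both folds by 2-fold at 1 h and were nonetheless not listed at 12 h were 1 each in Csmd3, Dnm3 and Gse1.

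**Figure D4:**
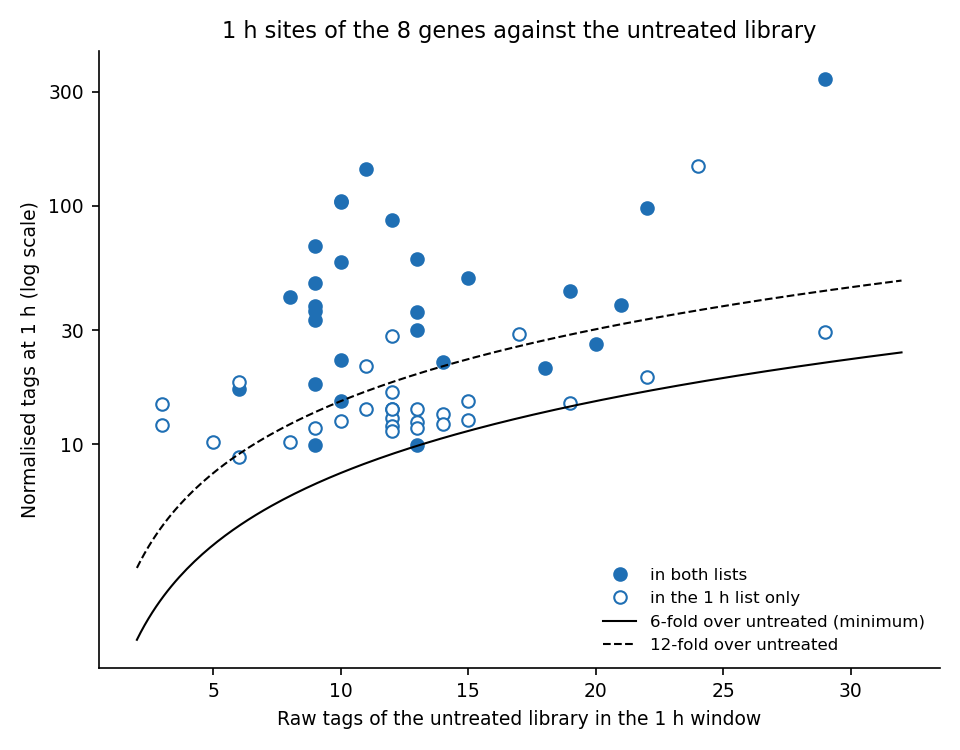
Normalised tags at 1 h (vertical log axis) against the raw tags of the untreated library in the same window (horizontal axis) for the 57 sites, filled where the site was in both lists and open where it was in the 1 h list only, with curves at 6-fold and 12-fold over the untreated level. Of the 28 open points 20 lie below the 12-fold curve, against 6 of the 29 filled ones.

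Untreated tags differed among the genes. Over the 57 sites they averaged 12.7 tags (3 to 29), beside 11.4 over the whole 1 h list and 10.8 for an average stretch of that width. The mean was 17.3 at the Hhat sites, 17.0 at Cdh18 and 14.6 at Csmd3, and 9.71 to 11.7 at the other 5 genes. A site with more untreated tags needed more hormone-treated tags to be listed, and the part of this difference in which sites were listed was not tested.

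Hhat held the strongest sites. Its 6 sites at 1 h, on chromosome 1, had 21.3 to 339.6 tags with a median of 96.1, and the median of their tag percentiles within the 1 h list was 92.6. The highest, at 192733028 to 192733310, had 339.6 tags at 1 h and 210.1 at 12 h, ranking 5 of 5638 and 11 of 2883 sites, and its log2 ratio was -0.69 (-0.77 to -0.61). Its neighbour 2.82 kb away had 146.9 tags at 1 h and was not listed at 12 h; its fold over the local region was 9.42, and that 10 kb region takes in the taller neighbour. The site 8.05 kb inside the start had 142.5 tags at 1 h and 29.8 at 12 h. Its log2 ratio of -2.26 (-2.45 to -2.07) was lower than at all but 0.985% of shared sites and was the largest fall among the 29. Beyond the start, 18.0 kb upstream, a site fell from 49.7 to 21.3 tags (-1.22), and a weaker one 10.1 kb upstream, with 21.3 tags, was listed at 1 h only. At the far end a site 1.64 kb past the span, which also lies within 25 kb of the potassium channel gene Kcnh1, had 22.0 and 17.0 tags (-0.37, interval -0.68 to -0.07), a direction that turned to 0.20 when shared-site tags set the scale. All 4 shared Hhat sites were lower at 12 h on the deposited scale, and their summed tags were 0.502 times the 1 h sum. The falls were unequal, and over the 4 shared sites the tallest held 339.6 of 553.8 tags at 1 h and 210.1 of 278.2 at 12 h. Of all listed tags of the gene it held 47.0% at 1 h and 75.5% at 12 h. That 1 h sum also counts the sites not listed at 12 h, whose level there is unknown.

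Csmd3 held the most sites, and they were of more even height. Its 11 sites on chromosome 15 had 14.1 to 97.2 tags at 1 h, with a median of 37.8, and the tallest held 20.8% of their sum. The 8 relisted sites had 14.4 to 62.9 tags at 12 h. Of these 8, 6 were lower and 2 higher, so neighbours within 1 gene moved in different directions. The tallest, at 48502344 to 48502626, went from 97.2 to 38.3 tags (-1.34, interval -1.52 to -1.17). The pair 1.79 kb apart went from 47.3 to 41.5 tags (-0.19, interval -0.39 to 0.01) and from 37.8 to 51.4 (0.44, interval 0.24 to 0.65). The pair therefore changed order between the lists. A site at 48585929 also rose, from 20.8 to 30.6 tags (0.56, interval 0.29 to 0.83). Near the high end of the span, the site at 48781039 had 67.7 and 62.9 tags (-0.11, interval -0.27 to 0.06) and became the tallest of the gene at 12 h, while its neighbour at 48786253 fell from 59.5 to 32.7 (-0.86). The strongest site listed at 1 h only, at 48447464, had 28.9 tags and would have needed 12.9 to meet the fold over control at 12 h. The site at 48385510 was also listed at 1 h only, with 28.4 tags, 18.7-fold over the untreated library and 13.3-fold over its surroundings, and would have needed 9.09. The lone site far from the rest, at 47901462, had 14.1 tags and was listed at 1 h only.

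Sox5 combined tall sites at either end of its span. On chromosome 6, its 8 sites had 10.2 to 103.9 tags at 1 h with a median of 28.2. The site at 144754059 to 144754341 had 103.9 tags at 1 h and 117.7 at 12 h (0.18, interval 0.05 to 0.31), at tag percentiles of 96.1 and 97.7 of the lists; per base of peak width the ratio was 0.08. At the opposite end the site at 143829974 went from 86.9 to 35.4 tags (-1.30, interval -1.48 to -1.11). The 2 tallest sites of the gene, close at 1 h, thus stood more than 3-fold apart at 12 h. Between them, 43.8 and 41.3 tags became 27.0 and 28.2 (-0.70 and -0.55), the latter site lying also inside the noncoding gene Sox5os3. A site of 15.1 tags was level at 16.3 (0.10, interval -0.23 to 0.44). The 3 sites listed at 1 h only were the lowest of the gene, at 10.2 to 12.9 tags.

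On the deposited scale, Celf2 and Dnm3 were the genes whose shared sites had more tags in sum at 12 h than at 1 h. In Celf2, on chromosome 2, the site at 7242160 to 7242442 had 33.2 tags at 1 h and 73.5 at 12 h. Its log2 ratio of 1.14 (0.95 to 1.34) exceeded that of 99.3% of shared sites, and its tag percentiles were 77.5 at 1 h and 93.9 at 12 h. It was the only 2-fold rise among the 29. Celf2 also held 3 of the 4 sites listed at 12 h only, with 14.6, 18.0 and 7.16 tags at 12 h. Of these, 2 lay 8.70 and 9.51 kb from the internal start shown above, on its opposite sides, and between them the site 7.96 kb from that start was level, at 17.8 and 17.2 tags (-0.05, interval -0.37 to 0.27). Each of the 3 was close to the minimum fold over control, since tags of 12.1, 14.4 and 6.82 respectively would have met it at 1 h. The last value lies below 8.28 normalised tags, the caller's threshold at 1 h, so meeting the fold need not have listed that site. At 12 h the same site, at 7.16, lies below the 7.67 normalised tags to which the caller's threshold corresponds. Its deposited caller score was 76. The 4 sites that Celf2 had at 1 h only were all weak, at 11.7 to 12.6 tags.

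In Dnm3, on chromosome 1, the site at 162323180 had 58.1 tags at 1 h and 89.2 at 12 h. Its log2 ratio of 0.62 (0.46 to 0.78) exceeded that of 95.7% of shared sites. The other 2 shared sites fell, from 35.9 to 22.6 tags (-0.67) and from 14.1 to 8.39 (-0.75), so the rise of the Dnm3 sum rested on 1 site. That site held 39.5% of the listed tags of the gene at 1 h and 68.0% at 12 h, in sums that also count sites listed once. Over the 3 shared sites it held 58.1 of 108.1 tags at 1 h and 89.2 of 120.19 at 12 h. A site at the 3-prime end of the gene, at 161984268, had 18.2 tags at 1 h, 24.1-fold over an untreated level of 6 tags, and was not listed at 12 h. It lies within 25 kb of Pigc too, a gene for a subunit of the enzyme that begins GPI anchor synthesis. The weaker sites listed once had 11.9 and 8.83 tags at 1 h and 10.9 at 12 h. No Dnm3 site lay nearer than 149 kb to the listed start. On the deposited scale the summed tags at shared sites were 1.78 times the 1 h value in Celf2 and 1.11 times in Dnm3. In the other 6 genes the factor ran from 0.502 to 0.844. Scaling by shared-site tags raises every factor, so which genes lie above 1 depends on the scale.

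The 4 shared sites of Rad51b were lower at 12 h by similar factors on the deposited scale. On chromosome 12 its tallest, at 79352395 to 79352677, had 104.4 tags at 1 h and 75 at 12 h (-0.48, interval -0.62 to -0.34), which becomes 0.10 on the scale of shared-site tags. The other shared sites went from 22.5 to 16.9 tags (-0.42), from 17.1 to 13.0 (-0.40) and from 9.94 to 8.39 (-0.24, interval -0.69 to 0.20). The 4 ratios thus lay close together, and all were above the median of all shared sites. The first site held 56.6% of the listed tags of the gene at 1 h and 66.2% at 12 h, but the 1 h sum includes 2 sites not listed at 12 h. Over the 4 shared sites the first held 104.4 of 153.94 tags at 1 h and 75 of 113.29 at 12 h, so its share did not rise. The 2 sites listed at 1 h only had 14.0 and 16.5 tags. All sites were at least 55.2 kb from the listed starts.

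Most Cdh18 sites listed at 1 h were not listed at 12 h, as was so for the whole 1 h list. The relisted share was 28.6% in Cdh18 (Wilson interval 8.22 to 64.1), beside 43.2% of the whole list. The interval includes the share of the whole list, so the loss did not set Cdh18 apart. On chromosome 15 Cdh18 had 7 sites at 1 h with 12.4 to 36.1 tags and 2 at 12 h with 15.8 and 30.1. The site at 22764018 fell from 36.1 to 15.8 tags (-1.20, interval -1.48 to -0.92). The site 3.53 kb beyond the span had 30.1 tags in both libraries (interval -0.25 to 0.24). Its second strongest site inside the span, with 29.5 tags, had an untreated level of 29 tags and was 8.05-fold above it, and it was listed at 1 h only. The other 4 sites listed at 1 h only had 12.4 to 19.1 tags and were 6.21-fold to 7.56-fold above the untreated level, all near the required 6.

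Gse1 had many sites and all were weak. The 7 sites on chromosome 8 had 9.94 to 15.2 tags at 1 h, with a median tag percentile of 22.0 in the list, and the strongest held 17.1% of their sum. Tags at the 1 site listed at both times, at 120368795, were 9.94 and 8.39 (-0.24, interval -0.69 to 0.20). The caller's threshold of 75 tags corresponds to 8.28 normalised tags at 1 h and 7.67 at 12 h, so this site was near the threshold in both libraries. The site at 120285175, with 14.7 tags, was 38.8-fold over an untreated level of 3 tags and was still not listed at 12 h. All 7 sites lay in the low 43.7% of the span, at least 106 kb from every listed start, all of which are internal; the nearest lay 28.7 kb from the 5-prime end of the span.

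Relatives of the 8 genes and other long genes were read in the same way, from lists written with these results known; the background for any coding gene was 17.1% with a 1 h site and 9.33% with a 12 h site. Neither Csmd1 (1643 kb) nor Csmd2 (581 kb), the paralogs of Csmd3, had a site at either time. Of the 691 coding genes at least as long as Hhat, 350 had none at 1 h. Among 6 other Sox genes, 3 had a 1 h site and 2 a 12 h site, the strongest being near Sox10, a neural crest factor, with 263.4 and 173.3 tags 23.3 kb outside its span. Of 17 other cadherins, 4 and 2 had a site, among them Cdh22 with a tallest site of 252.1 and 128 tags and Cdh13 with 67.6 and 59.5. Of 8 other CELF and muscleblind splicing genes, 4 and 2 had a site, with 3 at 1 h in Mbnl2. Of 4 other dynamins, 0 had a site at 1 h and 1 had a site at 12 h, Dnm2. That background covers genes with a median span of 17.3 kb. The other genes in the lists around Hhat, Rad51b and Gse1 had median spans of 45.5, 25.7 and 39.5 kb. Their 1 h counts were small, and a difference from the background was not tested. A site at 1 h was found for 2 of 18 other hedgehog pathway genes, 0 of 11 other homologous recombination genes and 1 of 11 other genes of the GSE1 and KDM1A-HDAC list, and the counts at 12 h were 2, 0 and 1.

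Of 29 genes known for great span, with a median of 1346 kb, 14 had a site at 1 h and 11 at 12 h, and none had more than 5. At 1 h this count was near the 49.3% of the 691 coding genes at least as long as Hhat that held a site. The muscle dystrophin gene Dmd held 5 and 4, the catenin gene Ctnna3 5 and 3, and Dlg2, a synaptic scaffold gene, 4 and 2. The tallest site of Tenm4, a teneurin gene with 3 and 2 sites, rose from 169.4 to 208.6 tags (0.30, interval 0.20 to 0.40).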

How the data were processed

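GR ChIP-seq peak lists of 3 libraries were used; an input sample is in the labels, and a list for it was not analysed here. Its label gives corticosterone, while the untreated list names an untreated input, per the file headers. The submitters' processing notes name bcl2fastq 2.17, Bowtie2 2.2.6 and HOMER on mm10, with no version stated for HOMER. Each library's peaks were called with a tag threshold of 75 set for a false discovery rate of 0.001, a fold of 6 over the control and over the local 10 kb, and a Poisson p of 0.0001, per the file headers. Peaks had 1 width within each list.

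The deposited normalised tag count is a signal scaled to 10000000 tags, per the file headers. The deposited control tags, also a signal, are the untreated library's tags, printed as 0.5 where there were none. The folds over control and local region are ratios deposited by the authors, the focus ratio is a deposited fraction, and the score is a deposited value of the caller. The untreated list gives its tags as a deposited count. Whole tags of the treated libraries were recovered from the deposited values for 100% of sites within 0.1 tag.

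Sites were paired by overlap of 1 bp or more. Ratios have exact Clopper-Pearson and shares Wilson 95% intervals; with 1 library per condition no test was possible. Genes came from RefSeq (GRCm38.p6), of which protein-coding genes on chromosomes with listed sites were counted. The 8 genes and the lists were chosen with earlier results of these data known. By rule the text names, per gene, the strongest site at each time, the shared sites with the highest and lowest ratio and the strongest site listed once, other sites where a gene has 10 or fewer, and up to 4 genes per list by number and height of sites. The genes just outside the choice, and the Csmd3 sites beyond this rule, were picked after their values were seen. A few items that the rule selects are left out of the text. Motif counts planned at sites were run on promoters only. Scripts used Python 3.11.15, numpy 2.4.6, pandas 2.3.3, SciPy 1.17.1 and matplotlib 3.10.9 and were tested on simulated data. Alternatives were other margins, overlaps, minimums and scalings, a per-base ratio and leaving out each gene.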

Additional observations from a re-analysis of the deposited data

How the results depend on the processing

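No paired analysis was possible because each group had 1 library and so no 2 replicate numbers to share. With each of the caller's minimums doubled, the 8 genes held 22 sites at 1 h and 12 at 12 h, 90.9% of these 1 h sites were listed at 12 h and 100% of the 12 h sites at 1 h; fewer sites entered by construction. When shared-site tags set the scale, all ratios rose by 0.57, which turned the median log2 ratio to 0.16, left 12 sites lower and 17 higher, and turned Hhat site 1 (1.64 kb past the span) to 0.20 and Rad51b site 1 (the tallest) to 0.10. Among long genes the share with 6 or more 1 h sites was 2.03%, not 0.116%. Margins of 0, 10 and 100 kb gave 53, 55 and 65 sites at 1 h and 30, 32 and 36 at 12 h. A 50% overlap, or centres within 100 bp, kept 29 pairs. Of 64 counts per gene, 21 moved by more than 1.5 times, 16 of them under the doubled minimums. Leaving out each gene, added after seeing the data, gave 45.7 to 56.0% of 1 h sites relisted and median ratios from -0.55 to -0.40. Weak sites rest on few tags, and sites below the minimums have no value here.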
